A study of Mus musculus with 12 samples.

Results

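The 10 genes followed here mark the macrophages of the liver and were measured in whole-liver RNA of mice with and without Yap1. They are Clec4f, Timd4, Vsig4, Adgre1, Marco, Cd68, Csf1r, Trem2, Gpnmb and Cd5l, taken by symbol from the 25676 genes of the table, and each of the 10 symbols had 1 row. The 12 mice were on a C57BL/6 background and 3 to 4 months old, and each gave 1 library. They formed 4 groups of 3: WT males, WT females, and males and females whose Yap1 had been deleted by Foxa3-Cre (KO). Foxa3 is a factor of the embryonic gut endoderm, so Cre under its promoter deletes in the forerunners of hepatocytes and bile duct cells. Macrophages come from a blood lineage and are not a target of that Cre, and the RNA here was of the whole liver, not of sorted macrophages. Levels are given in TPM, a share of each library's transcripts that is corrected for gene length, so levels of different genes can be set side by side.

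Kupffer cells are the resident macrophages of the liver sinusoids. They are seeded before birth, renew themselves locally, and are recognised in the mouse by the C-type lectin Clec4f, the phosphatidylserine receptor Timd4 (Tim-4) and the complement receptor Vsig4 (CRIg). In chronic injury, blood monocytes enter the liver and can form a further population, found along scars and around lipid or damaged cells, that carries Trem2, a lipid-sensing receptor, and Gpnmb, a lysosomal and surface glycoprotein. Monocytes that settle in an emptied Kupffer niche can also acquire Clec4f, while Timd4 is gained late, so Timd4 is widely used to tell long-resident Kupffer cells from newer ones.

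The sequences around the start sites of 4 of these genes are shown because the results turn on them: Clec4f as the resident marker with the highest level, Trem2 and Gpnmb as the scar-associated pair, and Cd68 as a general macrophage gene whose window holds motif matches. Each run covers 250 bases before to 50 bases after the start in RefSeq (build GRCm38.p6), read 5′ to 3′ on the strand of the gene. Capitals mark each copy of the AP-1 letters TGAGTCA, which a copy on the opposite strand shows in reverse complement as TGACTCA.
Clec4f, chr6:83656067-83656366, minus strand: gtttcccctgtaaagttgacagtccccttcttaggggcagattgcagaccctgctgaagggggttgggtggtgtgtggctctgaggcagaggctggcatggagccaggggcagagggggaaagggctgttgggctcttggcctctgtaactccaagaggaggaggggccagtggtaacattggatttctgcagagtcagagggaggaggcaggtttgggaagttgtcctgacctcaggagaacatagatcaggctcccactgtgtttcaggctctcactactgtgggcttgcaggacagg
Trem2, chr17:48346151-48346450, plus strand: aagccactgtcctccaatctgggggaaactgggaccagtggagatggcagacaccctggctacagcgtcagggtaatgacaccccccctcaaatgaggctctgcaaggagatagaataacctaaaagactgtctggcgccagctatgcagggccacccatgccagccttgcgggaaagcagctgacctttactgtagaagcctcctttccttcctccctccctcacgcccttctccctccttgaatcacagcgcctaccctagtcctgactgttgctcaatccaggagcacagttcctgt
Gpnmb, chr6:49036268-49036567, plus strand: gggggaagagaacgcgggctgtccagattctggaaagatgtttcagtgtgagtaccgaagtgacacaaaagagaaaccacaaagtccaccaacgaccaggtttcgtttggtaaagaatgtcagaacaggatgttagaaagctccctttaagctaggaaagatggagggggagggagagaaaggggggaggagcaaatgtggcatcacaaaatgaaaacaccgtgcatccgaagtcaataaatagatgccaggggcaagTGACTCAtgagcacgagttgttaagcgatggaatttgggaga
Cd68, chr11:69666121-69666420, minus strand: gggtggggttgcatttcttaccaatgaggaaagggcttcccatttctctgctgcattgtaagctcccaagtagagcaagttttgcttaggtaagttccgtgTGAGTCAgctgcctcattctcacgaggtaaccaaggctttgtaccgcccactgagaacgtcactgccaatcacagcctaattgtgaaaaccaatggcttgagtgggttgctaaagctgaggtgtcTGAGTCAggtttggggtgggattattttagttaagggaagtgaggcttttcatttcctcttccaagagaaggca

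RefSeq start-site windows matched 8 of the 10 genes, not Adgre1 and Csf1r. Besides TGAGTCA, 3 other motifs were searched on both strands: AGGAAGT, bound by PU.1 and other ETS factors, CACGTG, the E-box of MITF and TFE factors, and GGAATG, bound by TEAD, the partner of YAP1. The AP-1 letters stood in 2 of the 8 windows, in Cd68 at positions -149 and -24 and in Gpnmb at position 9 after the start, against 5.2% of 32851 windows of this length. The ETS, E-box and TEAD letters stood in 0 of the 8, against 9.35%, 7.15% and 14.7% of all windows. These matches describe letters in the windows; binding was not measured.

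Yap1 itself was read before any other gene. It averaged 29.5 ± 4.46 TPM in WT livers and 2.02 ± 0.775 TPM in KO livers (SD, n = 6 each), lower in 6 of 6 KO libraries (exact permutation within sex, two-sided p = 0.005, the smallest this design can give). The libraries held 19652110 to 27827163 reads as recovered from the steps of the TPM values, and 14321 to 15482 genes above 0. The typical gene sat higher in KO: the median log2 difference over all 12278 genes tested was 0.35, and the factor that centres a library on its typical gene (median of ratios) lay between 0.724 and 0.949 in WT and between 1.09 and 1.34 in KO. Differences are therefore given in TPM as deposited and again after each library was divided by that factor ("rescaled", median log2 difference -0.04). In whole tissue, more macrophages and more RNA of a gene per macrophage cannot be told apart.

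Genes of other liver cells were measured in the same libraries, and their part in the marker differences was not tested. Summed over 6 hepatocyte genes, levels were 75587 to 102520 TPM in WT and 57298 to 82708 TPM in KO, and 1 of the 6 was higher and 1 lower (0 and 2 after rescaling). Among all tested genes 50.1% were called higher and 4.82% lower, and after rescaling 20.9% and 18.7%, and the counts in these lists are read against those shares. Of the neutrophil genes, 3 of 4 tested were higher, and 1 of 4 after rescaling; the sum of the 7 listed ran from 0.294 to 21.7 TPM in WT and from 12.9 to 46.5 TPM in KO, with Ly6g at 0 in every WT library. By limma 0 of the 4 lymphocyte genes tested were called and 0 had a raw p under 0.05 (sums of the 7 listed of 1.50 to 6.47 TPM in WT and 2.04 to 7.34 TPM in KO). The same held for the 1 dendritic cell gene tested, Clec9a (0.421 to 1.77 TPM in WT and 0.819 to 2.33 TPM in KO). Summed over the 5 dendritic cell genes listed, levels were 0.822 to 2.42 TPM in WT and 2.23 to 4.91 TPM in KO. Of these, Xcr1, Flt3, Cd209a and Siglech were below the filter and not tested. Hepatic stellate cell genes were higher in 4 of 6 (54.3 to 155 against 114 to 285 TPM); after rescaling 2 were higher and 1 lower. Sinusoidal endothelial genes were lower in 2 of 6, and in 3 of 6 after rescaling (50.6 to 86.8 against 28.6 to 114 TPM). Bile duct genes were higher in 2 and lower in 1 of 4 tested (27.7 to 58.5 against 252 to 713 TPM). Spp1, which macrophages also express, made up most of that sum. Alone it stood at 21.9 to 52.5 TPM in WT and 232 to 702 TPM in KO. Sox9 was the other gene called higher, with a log2 difference of 1.57. Epcam was called lower (-0.35), and Krt19 was not called (-0.12), so the rise of the sum does not describe the bile duct genes as a set.

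All 10 markers were called higher in KO livers over both sexes (limma on log2(TPM + 1) with sex in the model, Benjamini-Hochberg adjusted p under 0.05 over all tested genes). That count is read against the 50.1% of all tested genes called higher. A log2 difference of at least 1 was reached by 9 of the 10, against 12.7% of all genes, and the median over the 10 markers was 2.17 against 0.35 over all genes. After rescaling, 9 of 10 were called higher against 20.9% of all genes, with a median of 1.74. Every KO library exceeded every WT library for 8 of 10 markers, where 28.7% of all genes showed such a gap; the exceptions were Clec4f and Timd4. After rescaling the gap held for 7 of 10, against 10.8% of all genes, and Vsig4 overlapped as well.

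**Figure D1:**
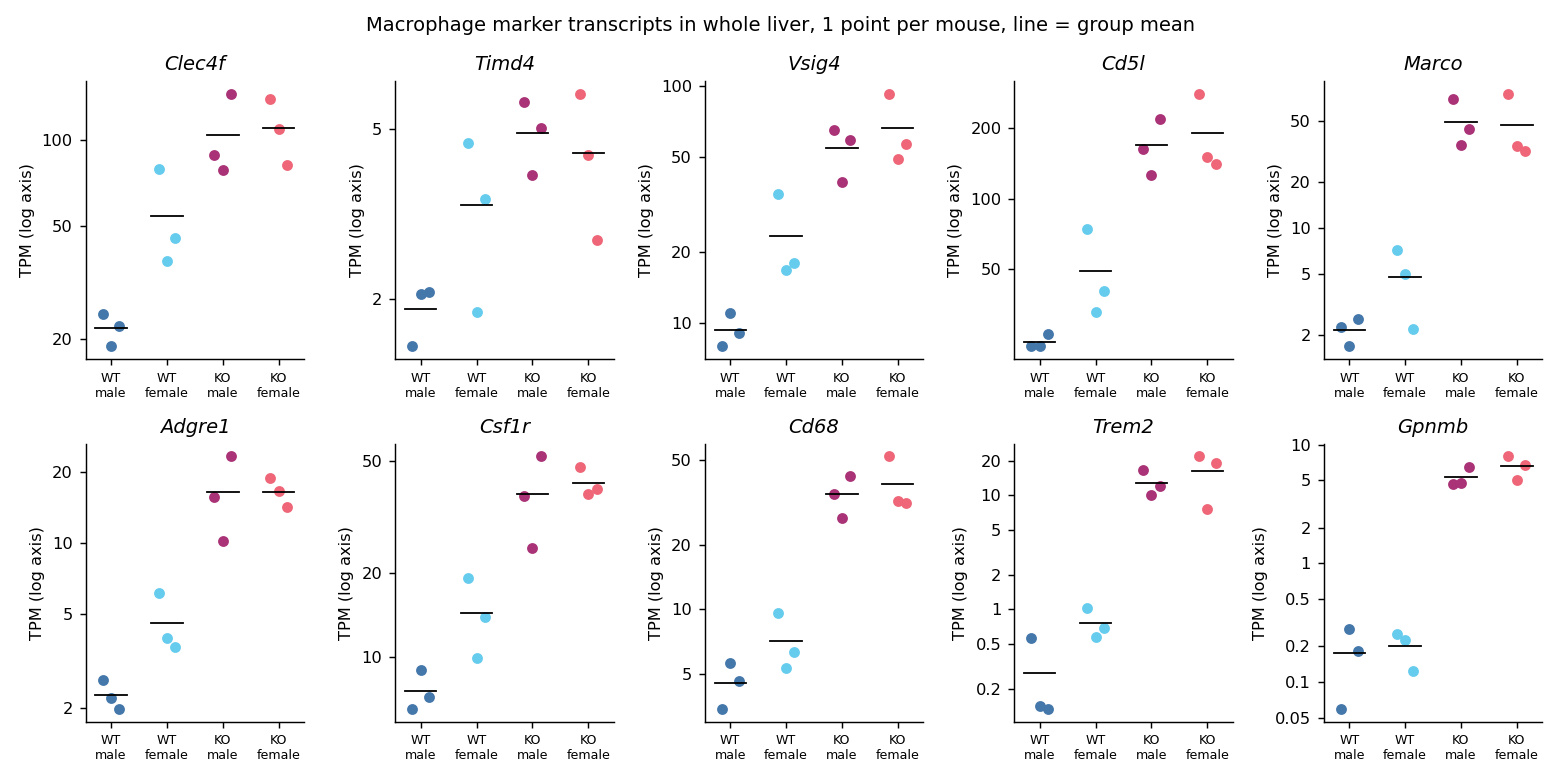
TPM (log axis) of each of the 10 markers in the 12 livers, by genotype and sex, with 1 point per mouse and a line at each group mean. The KO points lie above all WT points in 8 panels; in Clec4f and Timd4 the highest WT female reaches into the KO range.

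Positions are those of the GENCODE annotation of GRCm38. Among the resident Kupffer markers, Clec4f (ENSMUSG00000014542, chr6:83644542-83656187, minus strand), a lectin found on few other cells of the mouse, was the most abundant. It stood at 24.5, 18.9 and 22.3 TPM in the WT males and at 79.2, 37.6 and 45.4 TPM in the WT females. In the KO males it stood at 88.8, 78.8 and 146 TPM, and in the KO females at 139.7, 109.6 and 81.9 TPM. The WT males were the low group, and the top WT female just exceeded the lowest KO male, so the genotypes overlapped by a single pair of mice. The mean rose from 38.0 ± 22.6 to 107 ± 29.4 TPM (SD, n = 6 each), 2.83 times the WT mean, with a log2 difference of 1.61 (SE 0.251, limma adjusted p = 0.000137) and 1.15 after rescaling (adjusted p = 0.00107).

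Timd4 (ENSMUSG00000055546, chr11:46810800-46844332, plus strand), the receptor that binds phosphatidylserine on dying cells, moved least of the 10. Its levels were 1.55, 2.06 and 2.08 TPM in WT males and 4.64, 1.87 and 3.43 TPM in WT females. The KO males had 5.78, 3.89 and 5.02 TPM and the KO females 6.05, 4.34 and 2.76 TPM. The KO males lay above the WT males, whereas the females of both genotypes were mixed. The mean went from 2.61 ± 1.19 to 4.64 ± 1.23 TPM (SD, n = 6 each), 1.78 times the WT mean and a log2 difference of 0.67 (SE 0.207, limma adjusted p = 0.0143). After rescaling the difference was 0.32 and no longer passed (adjusted p = 0.22). The gene rested on 37 to 105 reads per WT library and 64 to 151 per KO library.

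Vsig4 (ENSMUSG00000044206, chrX:96247203-96293438, minus strand), which takes up complement-coated particles from the blood, stood at 7.96, 11.04 and 9.09 TPM in WT males and 35.01, 16.7 and 17.9 TPM in WT females. The KO males had 65.4, 39.3 and 58.9 TPM and the KO females 92.7, 49.3 and 57.1 TPM. All 6 KO libraries were above all 6 WT libraries, and the top WT female came close to the lowest KO male. The mean rose 3.71 times, from 16.3 ± 10.02 to 60.5 ± 18.2 TPM (SD, n = 6 each), with a log2 difference of 1.95 (SE 0.239, limma adjusted p = 1.77e-05) and 1.51 after rescaling (adjusted p = 0.000182). After rescaling the ranges overlapped, the top WT female at 37.7 and the lowest KO male at 34.1 rescaled TPM.

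Cd5l and Marco are scavenger genes of the resident Kupffer cell programme. Cd5l (ENSMUSG00000015854, chr3:87357881-87371073, plus strand), a secreted inhibitor of macrophage cell death also called AIM, was at 23.3, 23.5 and 26.3 TPM in WT males and 74.4, 32.7 and 40.2 TPM in WT females. In KO it reached 163, 126 and 219 TPM in males and 281, 151 and 141 TPM in females. The genotypes did not overlap, the KO mean was 4.90 times the WT mean, and the log2 difference was 2.33 (SE 0.240, limma adjusted p = 4e-06) and 1.87 after rescaling. In the WT livers Cd5l and Clec4f were at like levels, Cd5l being 101 ± 15.9% of Clec4f (SD, n = 6). In KO it was 167 ± 23.0% (SD, n = 6), and the lowest KO value, 137%, was above the highest WT value, 125%.

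Marco (ENSMUSG00000026390, chr1:120474538-120505024, minus strand), a scavenger receptor for bacteria and modified lipoproteins, showed the largest log2 difference of the 10 at a pseudocount of 1. The WT males had 2.27, 1.69 and 2.54 TPM and the WT females 7.20, 4.998 and 2.21 TPM. The KO males had 69.2, 34.8 and 44.2 TPM and the KO females 75.1, 34.4 and 31.9 TPM. Even the lowest KO female was far above the top WT female. The mean rose 13.8 times, from 3.49 ± 2.16 to 48.3 ± 19.0 TPM (SD, n = 6 each), a log2 difference of 3.49 (SE 0.286, limma adjusted p = 5.18e-07) and 3.09 after rescaling. Marco thus ranked with Adgre1 and Timd4 in WT livers and with Csf1r and Vsig4 in KO livers: it was below Csf1r in 6 of 6 WT libraries and above it in 3 of 6 KO libraries.

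Adgre1, Csf1r and Cd68 are carried by macrophages in general. Adgre1 (ENSMUSG00000004730, chr17:57358691-57483527, plus strand), the F4/80 antigen, was at 2.65, 2.21 and 1.99 TPM in WT males, 6.14, 3.96 and 3.64 TPM in WT females, 15.7, 10.2 and 23.3 TPM in KO males and 18.8, 16.6 and 14.2 TPM in KO females. Each KO mouse was above each WT mouse. The ratio of the genotype means was 4.80 and the log2 difference 2.01 (SE 0.198, limma adjusted p = 2.76e-06), or 1.61 after rescaling.

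Csf1r (ENSMUSG00000024621), the receptor for the growth factors CSF1 and IL-34 on which macrophages depend, stood at 6.50, 8.96 and 7.17 TPM in WT males and 19.2, 9.88 and 13.9 TPM in WT females. It stood at 37.7, 24.5 and 52.2 TPM in KO males and 47.9, 38.3 and 39.7 TPM in KO females. The genotypes again did not overlap, with a ratio of means of 3.66 and a log2 difference of 1.83 (SE 0.201, limma adjusted p = 6.88e-06), or 1.40 after rescaling. Exons of Hmgxb3 overlap Csf1r on the opposite strand, and the use of strand in counting is not given in the sources used here, so reads of the pair may not be separate; the other 9 markers had 0 overlapping exons of other genes.

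Cd68 (ENSMUSG00000018774, chr11:69664213-69666153, minus strand), a glycoprotein of macrophage lysosomes and late endosomes, was at 3.41, 5.57 and 4.63 TPM in WT males and 9.57, 5.33 and 6.33 TPM in WT females. It was at 34.6, 26.7 and 41.9 TPM in KO males and 51.9, 32.1 and 31.4 TPM in KO females. The lowest KO liver was well above the top WT liver. The means differed 6.27 times, 5.81 ± 2.09 against 36.4 ± 9.05 TPM (SD, n = 6 each), with a log2 difference of 2.48 (SE 0.182, limma adjusted p = 1.87e-07), or 2.05 after rescaling. Cd68 thus differed more than Adgre1 and Csf1r in the ratio of means; the difference between these genes' changes was not tested.

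The scar-associated markers were near the floor of the assay in WT livers. Trem2 (ENSMUSG00000023992, chr17:48346401-48354147, plus strand), whose protein senses lipids and lipoproteins through the adaptor TYROBP, had 0.558, 0.143 and 0.134 TPM in WT males and 1.02, 0.578 and 0.684 TPM in WT females. The KO males had 16.6, 10.03 and 11.9 TPM and the KO females 21.8, 7.53 and 19.2 TPM. Every KO liver was above every WT liver by a wide margin. The WT values rested on 2 to 12 reads per library, 41 in all 6, and the KO values on 83 to 287. The ratio of means was 27.97, from 0.519 ± 0.338 to 14.5 ± 5.57 TPM (SD, n = 6 each), and the log2 difference was 3.30 (SE 0.222, limma adjusted p = 8.25e-08), or 3.01 after rescaling.

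Gpnmb (ENSMUSG00000029816, chr6:49036546-49070929, plus strand) had 0.0593, 0.283 and 0.183 TPM in WT males and 0.252, 0.225 and 0.123 TPM in WT females. The KO males had 4.68, 4.79 and 6.52 TPM and the KO females 7.95, 5.06 and 6.72 TPM. WT males and WT females were alike in range, and all KO livers were far above both. The WT values rested on 3 to 16 reads per library, 61 in all 6, and the KO values on 203 to 421. The ratio of means was 31.7, from 0.188 ± 0.0840 to 5.95 ± 1.32 TPM (SD, n = 6 each), and the log2 difference was 2.53 (SE 0.127, limma adjusted p = 5.08e-09), or 2.28 after rescaling. At levels this low the pseudocount of 1 shrinks a fold: with 0.1 in its place the log2 difference was 4.69 for Trem2 and 4.43 for Gpnmb, above the 3.85 of Marco.

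The resident and scar-associated markers were then set against each other within each liver; a ratio of TPM within a library does not change when the whole library is rescaled. Trem2 and Gpnmb together amounted to 1.82%, 1.33% and 0.946% of the summed TPM of Clec4f, Timd4 and Vsig4 in the WT males, and to 1.07%, 1.43% and 1.21% in the WT females. In KO they amounted to 13.3%, 12.1% and 8.81% in the males and 12.5%, 7.71% and 18.3% in the females. The WT livers lay in a narrow band in both sexes, and the lowest KO liver was well above it (WT 1.30 ± 0.308%, KO 12.1 ± 3.73%, SD, n = 6 each). Both sums rose: the resident sum ranged from 32.0 to 119 TPM in WT and from 122 to 239 TPM in KO, the scar-associated sum from 0.317 to 1.27 TPM and from 12.6 to 29.8 TPM. On the log2(TPM + 1) scale, the mean of the scar-associated pair minus the mean of the resident 3 was -3.21 ± 0.476 in WT and -1.70 ± 0.352 in KO (SD, n = 6 each), a difference of 1.51 that is a description of chosen genes and carries no test. By group it was -2.85 ± 0.133 in WT males, -3.56 ± 0.414 in WT females, -1.79 ± 0.139 in KO males and -1.61 ± 0.519 in KO females (SD, n = 3 each), so that KO minus WT was 1.06 in males and 1.95 in females, with every WT female below every WT male. As the log2 ratio of summed TPM the sexes were closer, at 3.09 in males and 3.30 in females. Over both sexes it was 3.05 with a pseudocount of 0.1, 0.91 with Marco and Cd5l counted as resident, and 3.20 as the log2 ratio of summed TPM.

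**Figure D2:**
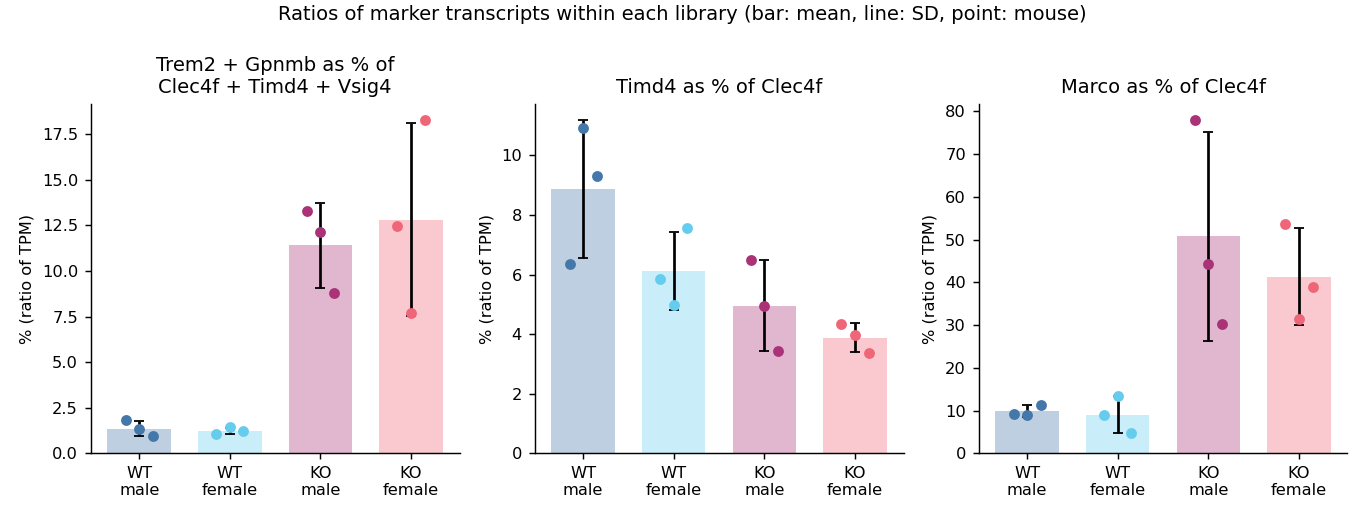
Ratios of marker transcripts within each library, in percent, by genotype and sex (bars are means, lines SD, points mice). The left panel shows Trem2 and Gpnmb rising from 0.946% to 1.82% of the resident markers in WT to 7.71% to 18.3% in KO, the middle panel Timd4 against Clec4f, and the right panel Marco against Clec4f.

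Single pairs showed how the order of the markers changed. Trem2 was below Timd4 in 6 of 6 WT livers, at 6.44% to 36.0% of it, and above it in 6 of 6 KO livers, at 173% to 695%. Gpnmb was likewise below Timd4 in every WT liver and above it in 5 of 6 KO livers; the exception was KO male 1, at 81.1%. Relative to Clec4f, Trem2 went from 1.33 ± 0.608% to 14.2 ± 6.30% and Marco from 9.49 ± 2.83% to 46.1 ± 17.8% (SD, n = 6 each), both without overlap. Within the resident set, Timd4 went the other way, from 7.49 ± 2.25% to 4.42 ± 1.17% of Clec4f (SD, n = 6 each), with overlapping ranges, and Vsig4 from 43.3 ± 8.59% to 57.5 ± 14.1%, also overlapping. Gpnmb as a share of Trem2 overlapped between the genotypes and was too thinly read in WT to rank the pair there.

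Setting each marker against Csf1r in the same library, a measure added after the data were seen, relates it to a gene that all these macrophages carry. Timd4 had 0.239 ± 0.0323 TPM per TPM of Csf1r in WT and 0.120 ± 0.0341 in KO (SD, n = 6 each), and the highest KO value, 0.159, was below the lowest WT value, 0.189. It was the single marker of the 9 whose KO range lay wholly below its WT range over both sexes. The shares of all genes lying wholly below or above on this measure were not computed. Csf1r itself differed by 1.83 on the log2 scale, against a median of 0.35 over all genes. A gene with the typical difference therefore also falls against Csf1r, and a fall on this measure is not particular to Timd4. Clec4f (3.36 ± 0.720 against 2.70 ± 0.418), Vsig4, Adgre1 and Cd5l overlapped between the genotypes on this measure, with KO means of 0.803, 1.07, 1.29 and 1.35 times the WT means. Within females Clec4f was wholly lower in KO as well, at 2.06 to 2.92 against 3.27 to 4.13 in WT, and within males it overlapped. Adgre1 and Cd5l were wholly higher in KO within males and overlapped within females, and Vsig4 overlapped within both sexes. The KO range lay wholly above the WT range for Cd68, at 1.68 times the WT mean, for Marco at 3.81 times, for Trem2 at 7.87 times and for Gpnmb at 8.22 times. Csf1r is itself a marker with its own genotype difference and an overlapping neighbour gene, so these are ratios and not numbers per cell.

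**Figure D3:**
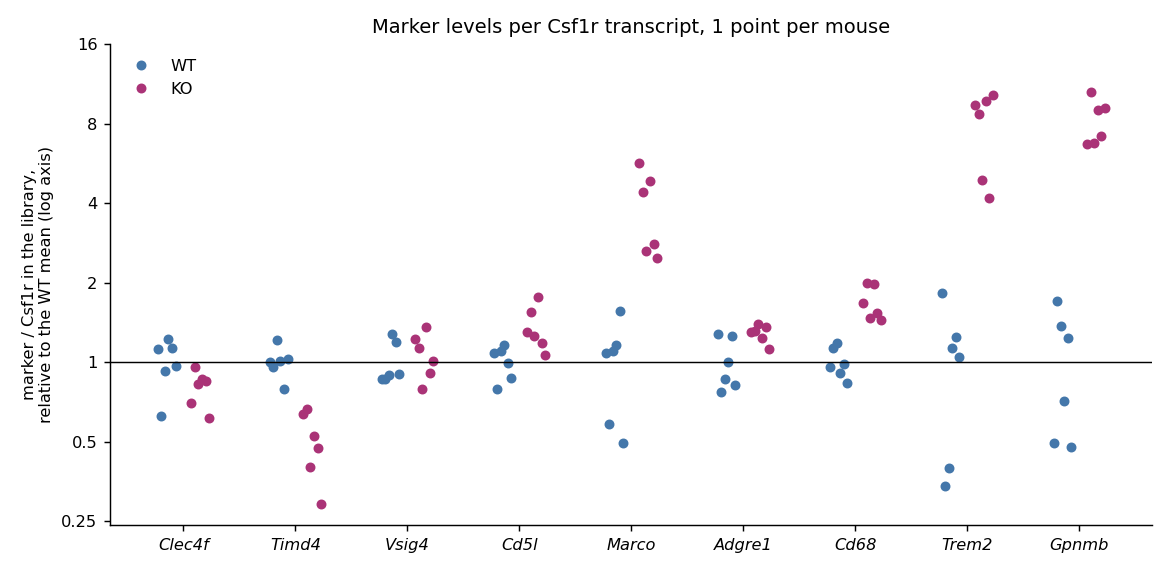
Each marker divided by Csf1r in the same library and set relative to the WT mean of that ratio (log axis), with 1 point per mouse and 6 mice per genotype. Timd4 falls below the WT range in KO, Clec4f, Vsig4, Adgre1 and Cd5l overlap it, and Cd68, Marco, Trem2 and Gpnmb lie above it. Shares of all genes on this measure were not computed, and the typical gene also falls against Csf1r (median log2 difference 0.35 against 1.83).

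Within males, all 10 markers were called higher in KO, against 43.3% of all genes (limma, 4 group means), and all 3 KO males exceeded all 3 WT males for each of them, which held for 50.8% of all genes. Within females 9 of 10 were called higher, against 29.1%, and 9 of 10 did not overlap, against 43.5%; the exception in both was Timd4, with a log2 difference of 0.33 (adjusted p = 0.379). After rescaling the females overlapped in Clec4f too. After rescaling the calls were 9 of 10 in males, against 13.9% of genes, and 8 of 10 in females, against 15.2%. Timd4 was the marker lost in males (0.59, adjusted p = 0.133) and Clec4f the further marker lost in females (0.71, adjusted p = 0.0664, against 1.06 and 0.0137 as deposited). The Clec4f call in females was also lost without WT female 2 (adjusted p = 0.0678) or without KO female 1 (adjusted p = 0.059).

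The differences were larger in males for 9 of the 10, Clec4f for example at 2.16 in males and 1.06 in females, Vsig4 at 2.40 and 1.50, and Marco at 3.94 and 3.04. Gpnmb was the exception, at 2.42 in males and 2.64 in females, and Trem2 stood at 3.43 and 3.17; with a pseudocount of 0.1 Trem2 was at 5.24 in males and 4.14 in females (male minus female 1.11, limma adjusted p = 0.609). Yap1 also differed more in males, at -3.80 in males and -2.93 in females: it averaged 1.40 TPM in KO males and 2.65 TPM in KO females, every KO female lying above every KO male (limma adjusted p = 0.692 between the KO sexes, and 0.221 for the difference between the male and the female genotype effects), and its part in the marker differences was not tested. The test of the difference itself called 0 of the 10, against 0.912% of all genes. Clec4f had the lowest adjusted p, with limma's male minus female difference at 1.10 (SE 0.411, adjusted p = 0.435), and was the single marker with a raw p under 0.05. Whether the markers respond more in males was therefore not resolved with 3 mice a group.

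**Figure D4:**
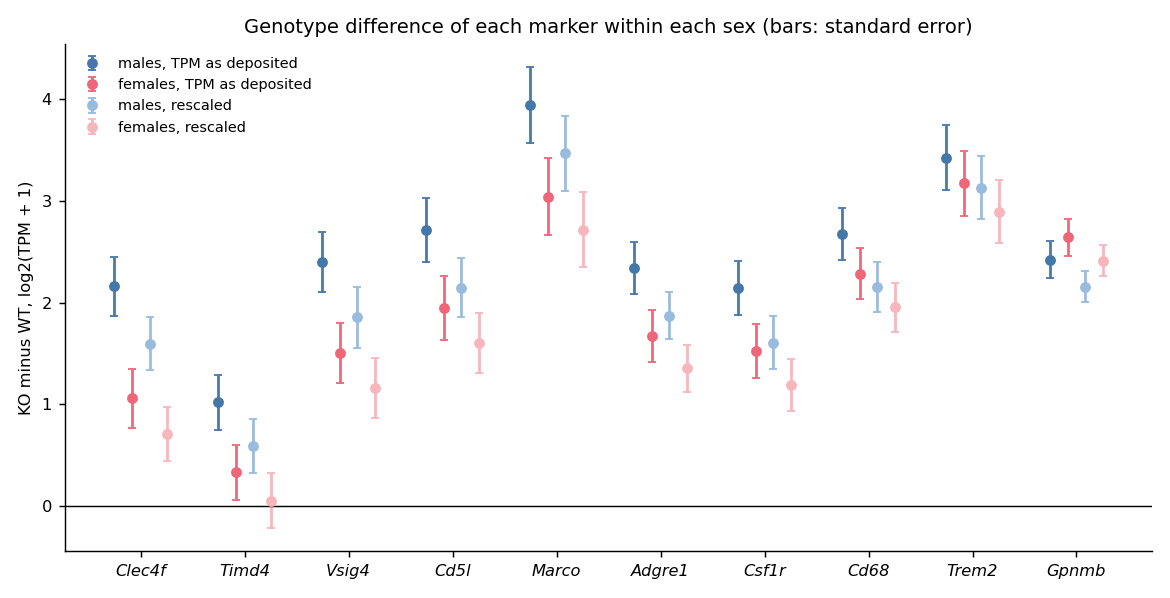
KO minus WT difference of each marker on the log2(TPM + 1) scale in males and in females, in TPM as deposited and after rescaling, with standard errors from limma. Points for males lie above those for females in every marker but Gpnmb, and Timd4 in females lies at 0.33 as deposited and 0.05 after rescaling.

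In TPM as deposited the WT female mean was above the WT male mean for all 10 markers, from 1.14 times for Gpnmb to 2.73 times for Trem2. After rescaling this held for 9 of the 10, and Gpnmb was lower in females, at 0.948 times the male mean. Both ends of that range are thinly read: without WT male 1 the ratio was 5.50 for Trem2 and 0.861 for Gpnmb, and without WT female 1 it was 0.996 for Gpnmb. All 3 WT females exceeded all 3 WT males for Clec4f, Vsig4, Adgre1, Csf1r, Trem2 and Cd5l, 6 of 10 markers, against 27.5% of all genes; after rescaling Csf1r and Trem2 overlapped and 4 of 10 remained, against 14.4%. Of the 10, 2 passed the test, against 4.6% of genes called higher in females: Clec4f (males minus females -1.20, SE 0.291, limma adjusted p = 0.0315) and Vsig4 (-1.16, SE 0.298, adjusted p = 0.0419). Neither passed after rescaling (adjusted p = 0.0564 and 0.0879), with no filter on low genes (0.0641 and 0.0814), or when WT male 1, WT male 2, WT female 1 or WT female 3 was left out in turn. Vsig4 also did not pass without WT female 2, KO male 1, KO male 3 or KO female 3, nor Clec4f without both animals of the lower number series in the titles, WT female 3 and KO female 1. In KO livers the sexes overlapped in all 10 markers, where 5.09% of all genes had every female above every male. There 0 of 10 were called (limma), 0 had a raw p under 0.05, the lowest adjusted p was 0.865, and 0.0814% of all genes were called.

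Other genes of macrophages, grouped by role, were measured beside the markers, and their counts of calls are read against the 50.1% of all genes called higher and the 20.9% after rescaling (lower, 4.82% and 18.7%). Of 12 other scar- and lipid-associated macrophage genes, 10 were higher and 0 lower, with a median log2 difference of 2.59 (10 higher and 1 lower after rescaling). Lpl, the lipase that frees fatty acids from lipoproteins, rose from 7.68 ± 4.53 to 176 ± 53.1 TPM, Cd63, a tetraspanin of late endosomes, from 3.66 ± 1.20 to 96.0 ± 30.5 TPM, and Spp1, osteopontin, from 33.8 ± 11.2 to 492 ± 195 TPM (SD, n = 6 each; limma adjusted p = 1.16e-07, 1.22e-09 and 3.73e-07). Spp1 is also a bile duct gene, and Lpl and Cd63 are made by other cells too. Fabp5 (0.05, adjusted p = 0.918) and Plin2 (0.04, adjusted p = 0.799), which bind or coat lipid in many cells, hepatocytes among them, were not called; Plin2 was lower after rescaling (-0.42, adjusted p = 0.0316).

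Of 10 other Kupffer cell genes, 7 were higher and 0 lower, with a median log2 difference of 0.91. After rescaling 6 were higher and 2 lower, the latter near the 18.7% of all genes called lower on that scale. Il18bp, which binds and blocks IL-18, was higher by 1.58 and Folr2, a folate receptor of resident macrophages, by 1.48 on the log2 scale (limma adjusted p = 1.74e-05 and 0.00026). C6, a complement component also made by hepatocytes, was higher by 2.30 (adjusted p = 0.00153), but it stood at 8.07 to 9.39 TPM in WT females and 143 to 208 TPM in WT males. Cd163, the haemoglobin scavenger receptor, was at 3.45 ± 1.42 TPM in WT and 2.43 ± 0.925 TPM in KO (SD, n = 6 each; log2 difference -0.37, adjusted p = 0.185), and Nr1h3, the sterol receptor LXR-alpha that helps maintain Kupffer cell identity, at 81.9 ± 10.1 and 86.7 ± 6.40 TPM (0.09, adjusted p = 0.453). After rescaling these were the 2 lower genes (-0.71 and -0.37, adjusted p = 0.0182 and 0.0079).

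**Figure D5:**
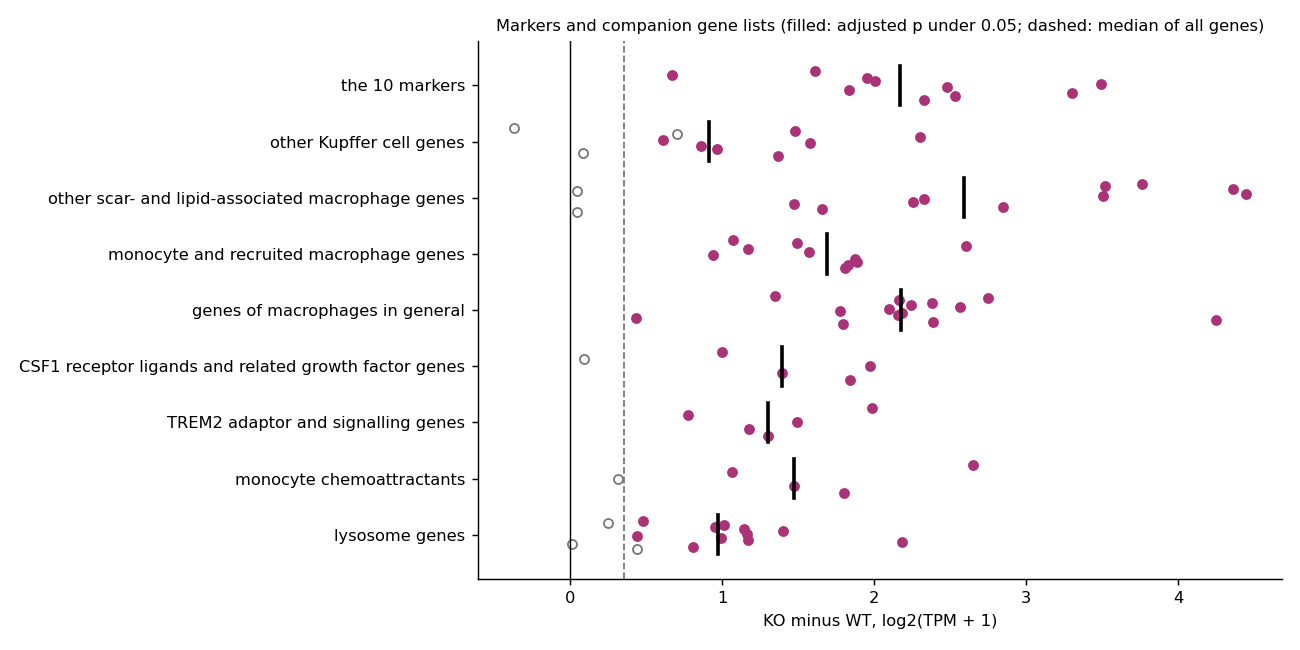
KO minus WT differences on the log2(TPM + 1) scale for the 10 markers and for the tested genes of 8 companion lists (1 point per gene, filled where the adjusted p was under 0.05, black bar at the list median, dashed line at the median of all genes). The list medians run from 0.91 for other Kupffer cell genes to 2.59 for other scar- and lipid-associated genes.

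Monocyte and recruited macrophage genes were higher in 10 of 10 tested, with a median of 1.69, and in 10 of 10 after rescaling, with a median of 1.37; Vcan and F13a1 of that list of 12 were below the filter. Cx3cr1, the fractalkine receptor of monocytes and their progeny, rose from 0.411 ± 0.301 to 7.89 ± 2.96 TPM, and Fcgr1, the high-affinity IgG receptor CD64, from 1.07 ± 0.811 to 6.54 ± 2.45 TPM (SD, n = 6 each; limma adjusted p = 6.18e-07 and 6.54e-06). S100a4, a calcium-binding protein of motile cells, was higher by 1.88 (adjusted p = 0.000423), with overlapping genotypes. Among the 8 chemoattractants listed, Ccl3, Ccl8 and Ccl12 were below the filter, and of the 5 tested 4 were higher and 0 lower. Ccl7 and Ccl4, at WT means of 0.134 and 0.154 TPM, passed the filter through their KO values, so this count was partly set by it. Ccl2, the ligand of CCR2 on monocytes, went from 0.902 ± 0.748 to 10.7 ± 3.89 TPM and Cx3cl1, the ligand of CX3CR1, from 0.508 ± 0.158 to 4.25 ± 0.633 TPM (adjusted p = 5.73e-06 and 1.58e-08). Ccl7 was higher by 1.48 and Ccl4 by 1.06, both with overlapping genotypes, and Ccl5 was not called.

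Of the genes of macrophages in general, 14 are reported here; all 14 were higher, with a median of 2.17, and after rescaling 13 were higher and 0 lower, with a median of 1.73. Cybb, the core of the phagocyte NADPH oxidase, rose 24.6 times, from 3.03 ± 1.38 to 74.4 ± 20.7 TPM (SD, n = 6 each; limma adjusted p = 1.03e-08). Lyz2, lysozyme, was higher by 2.75 and Fcgr3, an IgG receptor, by 2.57 on the log2 scale.

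Genes that act with the receptors were counted next. All 5 TREM2 adaptor and signalling genes were higher, with a median of 1.30, and 4 of 5 after rescaling, with a median of 0.98. Tyrobp, the DAP12 adaptor through which TREM2 signals, rose from 11.5 ± 4.15 to 49.4 ± 22.2 TPM, a log2 difference of 1.99 (limma adjusted p = 1.53e-05). Syk, the kinase it recruits, was higher by 1.49 and Inpp5d, the phosphatase SHIP1 that restrains that signal, by 1.30. Of the 7 CSF1R ligands and related growth factor genes listed, Csf2 and Csf3 were below the filter, and Csf2rb2 (WT mean 0.314 TPM) passed it through KO. Of the 5 tested, 4 were higher. Csf1 was among them, at 4.37 ± 2.17 TPM in WT and 9.17 ± 2.31 TPM in KO (1.00, adjusted p = 0.000147), whereas Il34, the other CSF1R ligand, was at 1.39 ± 0.973 and 1.45 ± 0.646 TPM (0.09, adjusted p = 0.754). The receptor subunits for GM-CSF, Csf2ra, Csf2rb and Csf2rb2, were higher by 1.97, 1.39 and 1.84.

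Gpnmb and Cd68 are proteins of the lysosome and its neighbours, so lysosome genes were counted too. Of 14, 11 were higher and 0 lower, with a median of 0.97, and after rescaling 9 were higher and 1, Tfeb, lower. Hexa, a subunit of the enzyme that breaks down gangliosides, rose from 41.4 ± 8.76 to 109 ± 4.22 TPM and Lipa, lysosomal acid lipase, from 107 ± 18.4 to 242 ± 38.2 TPM (SD, n = 6 each; limma adjusted p = 4.41e-07 and 1e-05). Atp6v0d2, a proton pump subunit, was higher by 2.19 over both sexes, but it stood at 0.150 to 0.817 TPM in WT males and 9.93 to 17.7 TPM in WT females. Tfeb and Mitf, transcription factors of the lysosome programme, were at 3.20 ± 0.867 against 3.20 ± 0.521 TPM and at 1.23 ± 0.438 against 2.11 ± 1.03 TPM (adjusted p = 0.933 and 0.0828). Tfe3, a further factor of that family, rose from 12.4 ± 1.45 to 22.5 ± 3.48 TPM (log2 difference 0.81, adjusted p = 6.14e-05; 0.36 after rescaling, adjusted p = 0.0259).

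The genes whose pattern over the 12 livers was most like that of a resident and of a scar-associated marker were named by Pearson's r of log2(TPM + 1) as a description; the points share the genotype difference and the library scale. For Clec4f these were Ckb (r = 0.98), Rbm43, Ifi207, Coro7 and Abcg3. For Trem2 they were Gpx3 (r = 0.993), Pla2g7 (r = 0.991), Fkbp1a, Cd63 and S100a11. The lists shared 0 genes. Gpx3, the plasma glutathione peroxidase, went from 4.23 to 82.0 TPM in the means, and Pla2g7, a phospholipase that clears platelet-activating factor, from 1.37 to 12.4 TPM.

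The authors' deposited table gives its own comparison of KO with WT for the same genes. In the authors' deposited table the fold was 26.0 for Gpnmb, 25.9 for Trem2, 14.0 for Marco and 5.25 for Cd68. In the same deposited table the fold was 4.59 for Cd5l, 4.03 for Adgre1, 3.65 for Vsig4, 3.09 for Csf1r, 2.76 for Clec4f and 1.54 for Timd4. The order of the 10 markers by that fold is the order of the ratios of means given above, with Timd4 the lowest. The FDR printed in the authors' deposited table is 0.15 for Timd4 and 0 to the digits given for the other 9, so Timd4, called at an adjusted p of 0.0143 here, is not called there at 0.05.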

How the data were processed

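Whole-liver RNA of 12 mice, 1 library each, was sequenced on Illumina libraries, per the labels' protocols. The authors deposited 1 table of TPM per gene and library, per the file headers, with their own fold change and FDR columns. Aligner, counter and annotation are not given in the sources used here; GRCm38 and edgeR are named, with no role, per the submitters' processing notes. Of the per-sample columns, 0 were unmatched. Genotype and sex came from the sample titles. The labels separate the mice, so p-values measure the spread between mice.

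TPM were analysed as log2(TPM + 1), a pseudocount of 1, in R 4.3.3 with limma 3.58.1 (eBayes with trend), for 12278 genes with a mean of at least 0.5 TPM, with Benjamini-Hochberg adjustment over all of them. All 10 markers passed that filter. Its mean is over all 12 libraries, so genes under 0.5 TPM in WT, Gpnmb among them (0.188 TPM), passed through their KO values. Genotype was fitted with sex as a covariate; effects within each sex, their difference and sex differences came from 4 group means over all 12 libraries. Fold changes are on the log2(TPM + 1) scale, which understates low genes. The code was tested on simulated data. Rescaling used median-of-ratios factors from 12819 genes above 0 in all libraries.

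Whole reads were recovered from the TPM steps, a measure added after seeing the data: 17332 of 17332 genes above 0 came out whole within 0.05 reads (100%). They gave depth and precision only. Markers, motifs and gene lists were chosen with earlier results of these data known. Genes named by rule are the 10 markers, Yap1, up to 3 called genes of the largest change per companion list, and the 5 tested genes most correlated with Clec4f and with Trem2; other gene names were chosen after their values were seen. From the list of genes of macrophages in general, 1 gene is not reported here, and the counts and median of that list are over the others.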

Additional observations from a re-analysis of the deposited data

Results flagged for a closer look

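In a group of 6 WT livers, 1 library stood apart for 2 of the 10 markers. WT female 1 had 35.01 TPM of Vsig4, and its gap to the next WT liver was 0.634 of the range of the group. The same mouse had 74.4 TPM of Cd5l, with a gap of 0.67 of the range. Both gaps were above Dixon's 95% limit for 6 samples, which chance alone passes in about 1 in 20 groups, and the genotype groups hold both sexes. Without WT female 1 the log2 difference between KO and WT was 2.15 for Vsig4 (limma adjusted p = 3.05e-06) and 2.52 for Cd5l (adjusted p = 8.75e-07).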

How the results depend on the processing

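The 10 markers were recomputed under 20 alternatives: rescaling, removal of the 20 most abundant genes, a pseudocount of 0.1, no filter or a minimum mean of 2 TPM, no trend, no sex term, each library left out, and both lower-numbered animals left out. No KO minus WT difference of a marker, over both sexes or within either, reversed; of the WT sex differences, that of Gpnmb went from -0.03 to 0.01 (males minus females) after rescaling. Over both sexes, 9 markers passed under all 20; Timd4 ranged from 0.32 to 0.87 and did not pass after rescaling. The count of all tested genes called higher fell from 6153 to 2568 after rescaling. The count of markers higher in WT females than in WT males was 2, and 0 after rescaling or with no filter, and 0 to 2 with 1 library left out. The scar-associated minus resident difference was 1.51, and 1.66 after rescaling, 3.05 with a pseudocount of 0.1, 0.91 with Marco and Cd5l in the resident set and 3.20 as a log2 ratio of summed TPM; the cause was not tested. Clec4f in females (1.06) did not pass without the lower-numbered animals, WT female 3 and KO female 1 (0.78, adjusted p = 0.142). WT levels of Trem2 and Gpnmb rest on at most 16 reads a library. No paired analysis was possible because the labels give no replicate numbers that pair mice across groups.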
